A study of Mus musculus with 10 samples.

Results

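The 7 genes described here encode the IKK-related kinases that lie upstream of the transcription factor NF-kappaB, together with the regulatory subunit that holds the canonical complex together. They were taken by symbol from a deposited table of 54532 genes, namely Chuk, Ikbkb and Ikbkg (the canonical complex), Tbk1 and Ikbke (the TBK1-type kinases), and Map3k8 and Map3k14 (MAP3K-type kinases that feed the pathway). All 7 were found once, and all 7 passed the filter on low counts that left 13864 genes for testing. The libraries were made from hearts of C57BL/6 mice, 8 weeks old, 5 injected with saline and 5 examined 24 h after lipopolysaccharide (LPS). LPS is the outer membrane component of Gram-negative bacteria that activates the receptor TLR4. No genetic change is given for either group, and dose, sex and route were not in the sources used here. Titles number the mice within a group; whether they shared cages or days is not stated, so p-values measure the spread between these samples, which may be partly technical.

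In the canonical route, receptors such as TLR4 lead the kinase TAK1 to activate a complex of IKKalpha (encoded by Chuk), IKKbeta (Ikbkb) and the scaffold NEMO (Ikbkg), which phosphorylates the inhibitor IkappaB so that it is destroyed and NF-kappaB enters the nucleus. In the non-canonical route, NIK (Map3k14) is held low by constant degradation, and when it is stabilised it activates IKKalpha, which drives the processing of p100. TBK1 and its relative IKKepsilon (Ikbke) phosphorylate the interferon regulatory factors IRF3 and IRF7 below TRIF, STING and MAVS, and TPL2 (Map3k8), held inactive by p105, is released by IKKbeta and activates the ERK kinases. These kinases are controlled largely at the protein level, and the values below are of transcripts only.

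Promoter windows from 250 bases before to 50 bases after the start of transcription were taken from RefSeq (GRCm38.p6), which held entries for 5 of the 7 genes, with 4 windows for Ikbkg. The windows of both TBK1-type genes, whose transcripts rose, and of Map3k14, whose transcript did not pass the test, are shown for comparison, read 5′ to 3′ along the gene's strand. Capitals mark matches, on either strand, to an NF-kappaB-like pattern (GGG, any 5 bases, CC). No window shown held the interferon response pattern (GAAA, any 2 bases, GAAA) or the STAT pattern TTCNNNGAA, which were searched on both strands as well and would have been marked the same way.
Tbk1 (chr10:121586745-121587044, minus strand): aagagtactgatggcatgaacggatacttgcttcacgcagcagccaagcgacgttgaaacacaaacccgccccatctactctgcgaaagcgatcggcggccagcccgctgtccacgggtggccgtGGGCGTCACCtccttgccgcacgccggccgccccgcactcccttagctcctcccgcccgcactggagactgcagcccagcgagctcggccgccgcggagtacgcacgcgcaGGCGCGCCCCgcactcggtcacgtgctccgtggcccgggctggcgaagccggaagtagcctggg
Ikbke (chr1:131279514-131279813, minus strand): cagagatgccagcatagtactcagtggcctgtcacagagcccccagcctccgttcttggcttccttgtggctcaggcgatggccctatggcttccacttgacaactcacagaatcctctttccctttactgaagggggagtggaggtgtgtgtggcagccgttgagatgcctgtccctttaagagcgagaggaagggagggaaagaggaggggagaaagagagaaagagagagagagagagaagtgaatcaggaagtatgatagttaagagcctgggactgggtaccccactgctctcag
Map3k14 (chr11:103267352-103267651, minus strand): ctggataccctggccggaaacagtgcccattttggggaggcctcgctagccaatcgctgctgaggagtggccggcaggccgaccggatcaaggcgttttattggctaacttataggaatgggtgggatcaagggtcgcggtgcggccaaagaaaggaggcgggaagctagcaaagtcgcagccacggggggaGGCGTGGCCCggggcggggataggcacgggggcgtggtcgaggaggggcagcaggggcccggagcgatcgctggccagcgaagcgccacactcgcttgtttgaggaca

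The Tbk1 window held 2 matches to the NF-kappaB-like pattern, which start 125 and 14 bases before the start of transcription, the Map3k14 window held 1, and the Ikbke window held 0. The pattern is loose, since 50.8% of 32851 promoter windows of this length held it, against 3.44% for the interferon response pattern and 8.30% for TTCNNNGAA. Chuk had 1 match to the NF-kappaB-like pattern and 1 to TTCNNNGAA. Of the 4 windows of Ikbkg, whose transcript did not rise, 1 held 3 matches to the NF-kappaB-like pattern, 1 held 1 and the others held 0. These are matches of letters in a short window, not binding sites.

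Libraries held between 14607969 and 17012372 counts. The heart label matched the muscle markers: 8 cardiomyocyte genes, led by Myh6 and Actc1, summed to between 40989 and 49368 CPM in saline and between 43286 and 47728 CPM in LPS libraries. CPM are counts per 1000000 counts of the library, with library sizes scaled by trimmed mean of M-values (TMM). Saline replicate 5 stood apart. Summed over 12 interferon-stimulated genes it was at 4413 CPM, against 146 to 502 CPM in saline replicates 1 to 4 and 7386 to 15244 CPM in LPS libraries. Fold changes of the 7 kinases are given with and without it, and for other genes where leaving it out moved the fold by more than 1.5 times. Fewer cells of a type and less RNA per cell cannot be told apart in libraries of heart tissue.

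Of the 7 genes, 5 rose after LPS and 0 fell by edgeR's quasi-likelihood test across all genes (adjusted p below 0.05), while 18.9% of all tested genes rose and 21.0% fell (39.9% in either direction). With upper quartile scaling 5 of the kinases rose and 1 fell, and with total count scaling 3 rose and 1 fell. Over all genes 2617 rose and 2916 fell, against 1992 and 4407 with upper quartile scaling and 1711 and 5774 with total count scaling. Map3k8, Ikbke and Tbk1 rose most, with 7.80-fold, 7.04-fold and 3.56-fold more transcript. Chuk and Ikbkb rose by 1.32-fold and 1.38-fold. The scaffold gene Ikbkg and the NIK gene Map3k14 did not pass the test. The median log2 fold change was 0.47 over the 7 genes and -0.02 over all tested genes. In 5 of the 7 genes every LPS library lay above every saline library, which held for 14.4% of all tested genes. Without saline replicate 5 the count was again 5 rising and 0 falling, against 21.0% and 22.9% of 14123 tested genes.

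**Figure D1:**
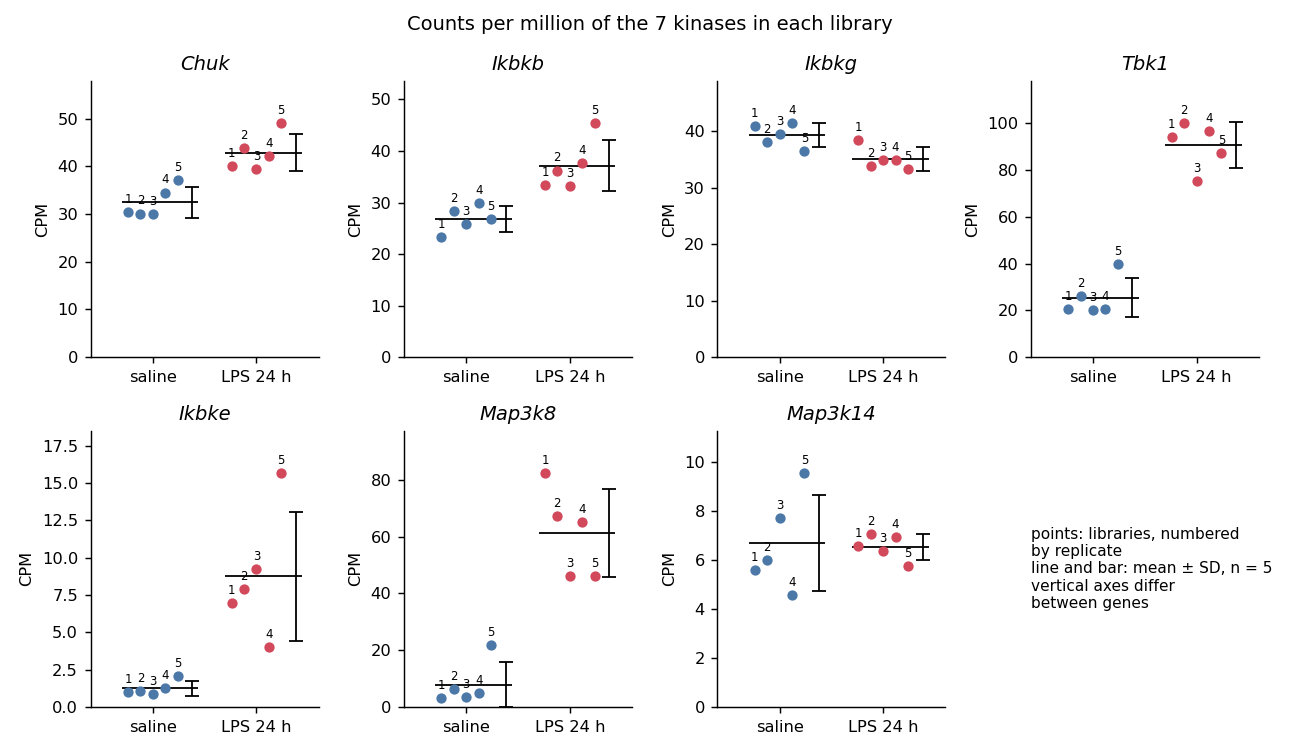
Scaled counts (CPM, vertical axes, each starting at 0) of the 7 genes in the 5 saline (blue) and 5 LPS (red) libraries, with points numbered by replicate and the mean ± SD drawn in black. LPS libraries lie above all saline libraries for Chuk, Ikbkb, Tbk1, Ikbke and Map3k8, and saline replicate 5 is the highest saline library for Chuk, Tbk1, Ikbke, Map3k8 and Map3k14.

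Both TBK1-type kinases rose without overlap between the groups. Tbk1 (ENSMUSG00000020115, GRCm38 chromosome 10, 121546455 to 121586787), the kinase of IRF3, was at 20.5, 26.0, 20.3, 20.6 and 39.7 CPM in saline replicates 1 to 5 and at 94.0, 99.9, 75.1, 96.5 and 87.2 CPM in LPS replicates 1 to 5. The lowest LPS library thus stood clear of the highest saline library, replicate 5, and the LPS libraries were tightly grouped. The log2 fold change was 1.83 ± 0.18 (SE, adjusted p = 8.92e-06, edgeR). Leaving out saline replicate 5 raised it to 2.05 ± 0.12 (adjusted p = 1.23e-09).

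Ikbke (ENSMUSG00000042349, chromosome 1, 131254343 to 131279606), the inducible relative of Tbk1, had few reads in saline hearts. It had 19, 19, 15, 22 and 35 reads in saline replicates 1 to 5 and 101, 102, 151, 49 and 216 reads in LPS replicates 1 to 5. On the CPM scale this was 0.990, 1.06, 0.840, 1.27 and 2.08 in saline and 6.98, 7.93, 9.26, 4.01 and 15.7 in LPS libraries. All LPS libraries were higher, but they spread more than for any other of the 7 genes, 3.91-fold from the lowest (replicate 4) to the highest (replicate 5), against 1.16-fold to 1.79-fold for the other genes. The log2 fold change was 2.82 ± 0.36 (SE, adjusted p = 4.73e-05, edgeR), 3.08 without saline replicate 5 and 2.51 without LPS replicate 5.

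Ikbke is known to be abundant in immune cells, so marker genes were set beside it. Neutrophil markers, 7 genes led by S100a9 and Csf3r, summed to 19.1, 19.1, 39.0, 13.2 and 33.8 CPM in LPS replicates 1 to 5. Their lowest LPS value was in replicate 4, as was that of Ikbke. The highest was in replicate 3 for the markers and in replicate 5 for Ikbke. In saline replicates 1 to 4 the markers summed to 1.23 to 3.73 CPM, and in saline replicate 5 to 22.6 CPM, above 3 of the LPS libraries. Ikbke in saline replicate 5 was below all LPS libraries. Of the 7 markers 3 were abundant enough to test, of which 2 rose, and the defining marker Ly6g had 1 read in saline and 8 in LPS libraries. The part of neutrophils in the rise of Ikbke was not tested.

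Macrophage and monocyte markers were set beside the kinases in the same way. The 7 markers, led by Lyz2 and C1qa, summed to 393 to 575 CPM in saline and 316 to 519 CPM in LPS libraries, and 1 rose (the LPS co-receptor gene Cd14) while 3 fell. All 6 endothelial markers, among them Pecam1 and Cdh5, fell, and they summed to 900 to 1444 CPM in saline and 515 to 655 CPM in LPS hearts. Of the 5 fibroblast markers, led by Dcn and Col1a1, 0 rose and 2 fell, and of the 8 cardiomyocyte markers 0 passed. The 7 lymphocyte markers, led by Cd4 and Ms4a1, summed to no more than 3.95 CPM in any library, and 1 was abundant enough to test. The part of these cell types in the kinase values was not tested.

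Map3k8 (ENSMUSG00000024235, chromosome 18, 4331327 to 4353015) encodes TPL2, which links the pathway to ERK. It was at 3.13, 6.34, 3.36, 4.97 and 21.7 CPM in saline replicates 1 to 5 and at 82.4, 67.1, 46.1, 65.0 and 46.0 CPM in LPS replicates 1 to 5. Saline replicate 5 lay 4.87-fold above the mean of the other saline libraries, yet below every LPS library. The log2 fold change was 2.96 ± 0.57 (SE, adjusted p = 0.00349, edgeR) with all libraries. Without saline replicate 5 it was 3.79 ± 0.26 (adjusted p = 1.83e-07), so that the rise went from 7.80-fold to 13.8-fold. With all libraries, 1.98% of tested genes had a larger rise.

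Map3k14 (ENSMUSG00000020941, chromosome 11, 103219762 to 103267472), the gene of the non-canonical kinase NIK, was measured at 5.57, 6.01, 7.73, 4.57 and 9.55 CPM in saline and at 6.56, 7.07, 6.38, 6.95 and 5.74 CPM in LPS replicates 1 to 5. The groups overlapped fully, and all LPS libraries lay within the range of the saline libraries. The log2 fold change was -0.03 ± 0.19 (SE, adjusted p = 0.912, edgeR). Leaving out saline replicate 5 gave 0.13 ± 0.17 (adjusted p = 0.564). The sign of this small difference was not stable.

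The catalytic subunits of the canonical complex rose by smaller factors than Tbk1, Ikbke and Map3k8. Chuk (ENSMUSG00000025199, chromosome 19, 44073335 to 44107480), which encodes IKKalpha, was at 30.3, 30.1, 30.0, 34.5 and 37.2 CPM in saline and at 40.1, 43.7, 39.4, 42.1 and 49.0 CPM in LPS replicates 1 to 5. The highest saline library, replicate 5, came close to the lowest LPS library without reaching it. Its log2 fold change was 0.40 ± 0.10 (SE, adjusted p = 0.00416, edgeR), against 0.46 when saline replicate 5 was left out.

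Ikbkb (ENSMUSG00000031537, chromosome 8, 22659212 to 22706589), which encodes IKKbeta, the main IkappaB kinase of the canonical route, was at 23.3, 28.4, 25.8, 29.9 and 26.8 CPM in saline and at 33.4, 36.2, 33.1, 37.6 and 45.4 CPM in LPS replicates 1 to 5. Here saline replicate 5 lay among the other saline libraries, unlike for the genes above. The log2 fold change was 0.47 ± 0.11 (SE, adjusted p = 0.00306, edgeR), and 0.47 also when saline replicate 5 was left out. The rises of Chuk and Ikbkb depended on scaling. With scaling by total count alone, which moved the median of all genes by -0.27, their log2 fold changes were 0.13 and 0.20 (adjusted p = 0.250 and 0.159), still 0.43 and 0.49 above the median of all genes.

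Ikbkg (ENSMUSG00000004221, chromosome X, 74393290 to 74453854), which encodes the ubiquitin-binding scaffold NEMO, was at 40.9, 38.1, 39.5, 41.4 and 36.4 CPM in saline and at 38.5, 33.7, 34.8, 34.9 and 33.2 CPM in LPS replicates 1 to 5. In 4 of 5 LPS libraries it was below the lowest saline library, and LPS replicate 1 lay among the saline libraries. The log2 fold change was -0.17 ± 0.08 (SE, unadjusted p = 0.0606, adjusted p = 0.122, edgeR), against -0.19 when saline replicate 5 was left out (adjusted p = 0.102). It passed as a fall with total count scaling (-0.44, adjusted p = 0.00264) and upper quartile scaling (-0.32, adjusted p = 0.00704), and stood 0.14 below the median of all genes with either. Ikbkg shares 418 of its 8110 exon bases with G6pdx on the other strand, which fell (log2 fold change -0.72, adjusted p = 0.00375), and without a stated strand setting reads in that stretch cannot be told apart. The other overlaps, with Gm28913, Gm28914, Gm15346 and 1700028N14Rik, carried at most 10 reads in all libraries.

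**Figure D2:**
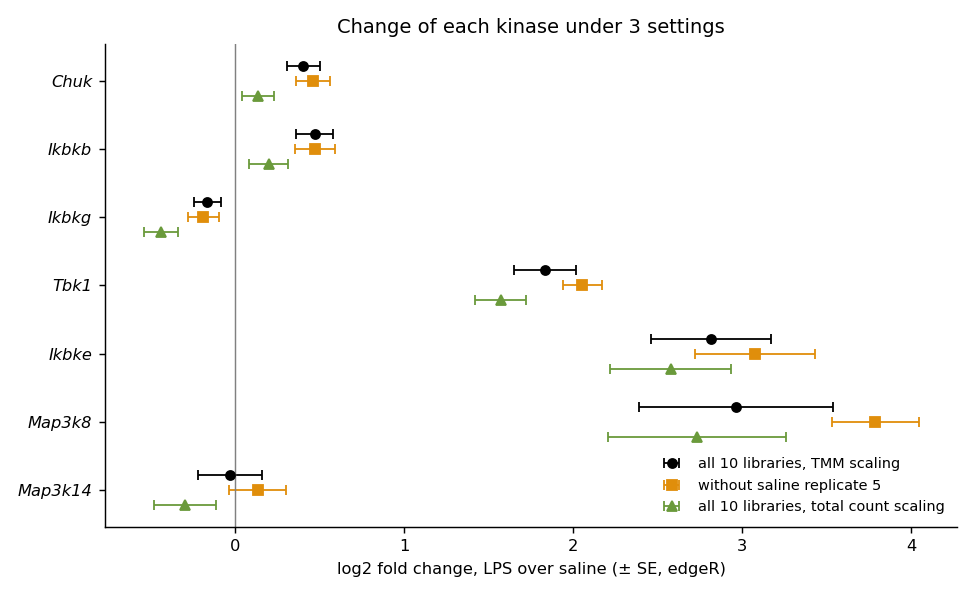
Log2 fold changes of LPS over saline (horizontal axis, ± SE, edgeR) of the 7 genes with all libraries and TMM scaling (black), without saline replicate 5 (orange) and with total count scaling (green). Map3k8, Ikbke and Tbk1 lie far to the right under each setting, Chuk and Ikbkb move towards 0 with total count scaling, and Map3k14 lies on both sides of 0.

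Levels of different genes were compared in the authors' FPKM (fragments scaled to gene length and to library size). In saline hearts the order by mean was Tbk1 at 6.85 ± 2.28 (SD, n = 5 per group here and below), Chuk at 6.72 ± 0.697, Ikbkg at 5.10 ± 0.254, Map3k8 at 1.85 ± 1.84, Ikbkb at 1.48 ± 0.138, Map3k14 at 1.08 ± 0.322 and Ikbke at 0.146 ± 0.0579 FPKM. Tbk1 and Chuk did not differ beyond their spread, nor did Map3k8, Ikbkb and Map3k14. In LPS hearts Tbk1 at 24.9 ± 2.73 FPKM stood alone at the top, followed by Map3k8 at 14.6 ± 3.70, Chuk at 9.06 ± 0.880, Ikbkg at 4.64 ± 0.272 and Ikbkb at 2.10 ± 0.296 FPKM. Map3k14 at 1.07 ± 0.0818 and Ikbke at 1.05 ± 0.525 FPKM came last and did not differ beyond their spread. Map3k8 thus ranked 4 in saline and 2 in LPS hearts. Its saline rank rested on replicate 5: over the other 4 saline libraries it was at 1.04 ± 0.349 FPKM (SD), rank 5, below Ikbkb at 1.48 ± 0.159 FPKM. Tbk1 was then at 5.87 ± 0.734 FPKM, rank 2, below Chuk at 6.46 ± 0.446 FPKM.

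These levels depend on the length used. The deposited length is the union of all annotated exons, retained introns included, and for Ikbkb it is 19078 bases against 3977 bases for its longest coding transcript. Per kilobase of the longest coding transcript, Ikbkb had 6.75 ± 0.634 CPM in the saline group and 9.34 ± 1.25 CPM after LPS, rank 3 and rank 4 among the 7 genes, against rank 5 with the deposited length. Chuk then ranked highest in saline at 9.26 ± 0.935 CPM, with Tbk1 next at 8.40 ± 2.76 CPM, a gap within the spread. Tbk1, at 29.9 ± 3.25 CPM, and Map3k8, at 23.9 ± 6.03 CPM per kilobase, were still the most abundant in LPS hearts, and with this length their spreads met.

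The share of each class was then set side by side. Of the reads per kilobase of longest coding transcript that fell on the 7 genes, the canonical complex held 68.0%, 62.3%, 67.2%, 69.5% and 48.0% in saline and 27.5%, 29.5%, 34.3%, 30.6% and 36.3% in LPS replicates 1 to 5. The TBK1-type genes held 23.6%, 26.2%, 22.6%, 21.5% and 29.3% in saline and 36.0%, 39.6%, 38.6%, 38.3% and 40.5% in LPS libraries. The MAP3K-type genes held 8.44%, 11.4%, 10.1%, 8.99% and 22.7% in saline and 36.5%, 31.0%, 27.1%, 31.1% and 23.2% in LPS libraries. For this class saline replicate 5 came close to LPS replicate 5. Map3k8 alone held 4.06%, 7.26%, 4.24%, 5.78% and 17.9% in saline and 34.8%, 29.1%, 25.0%, 29.2% and 21.5% in LPS libraries. The groups did not overlap in any of these shares, and saline replicate 5 was the saline library nearest to the LPS libraries in each. Map3k14, the other MAP3K-type gene, lost share, from 4.49 ± 0.980% in saline to 1.83 ± 0.187% in LPS libraries (SD, n = 5 per group), also without overlap. A share falls when another rises, so these are a description of make-up with no test, and the canonical genes lost share while Chuk and Ikbkb rose in CPM.

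**Figure D3:**
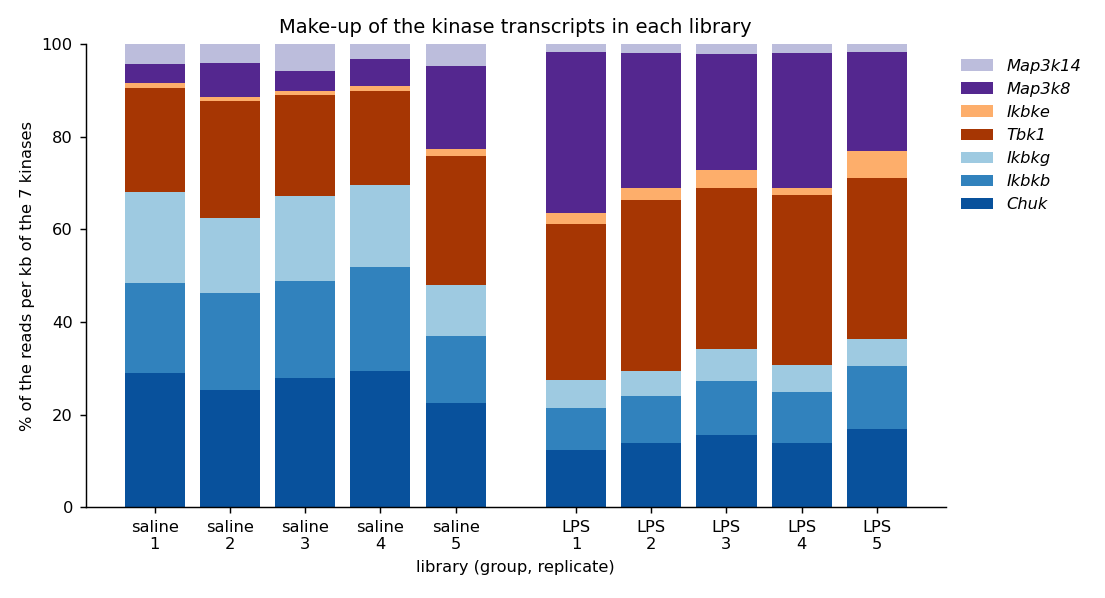
Share of each of the 7 genes (vertical axis, % of their summed reads per kilobase of longest coding transcript) in the 10 libraries, with canonical genes in blue, TBK1-type genes in orange and brown and MAP3K-type genes in purple. The blue part shrinks from between 48.0% and 69.5% in saline to between 27.5% and 36.3% in LPS libraries, and the dark purple Map3k8 part grows.

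Whether paired kinases changed unequally was tested on 3 ratios within each library, which need no scaling (exact permutation test, two-sided, adjusted over the 3 ratios; smallest possible p = 0.00794). The log2 ratio of Map3k8 to Map3k14 was 0.41 ± 0.93 in saline and 3.74 ± 0.30 in LPS hearts (SD, n = 5 per group; exact p = 0.00794, adjusted p = 0.0238), without overlap. The 2 MAP3K-type genes thus changed unequally, by a difference of 3.33 on the log2 scale, or 3.65 without saline replicate 5. The ratios were chosen with earlier results of these data known. Map3k8 by itself separated the groups, so this p-value is no independent support.

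The log2 ratio of Ikbke to Tbk1 was -5.58, -5.82, -5.80, -5.22 and -5.46 in saline and -4.96, -4.86, -4.22, -5.79 and -3.68 in LPS replicates 1 to 5. In 4 of 5 LPS libraries it was above all saline libraries, and LPS replicate 4 lay among the lowest saline libraries. The difference was 0.87 (exact p = 0.0397, adjusted p = 0.0595, n = 5 per group; 0.90 when saline replicate 5 was left out), so that a larger rise of Ikbke than of Tbk1 did not pass the test. Without LPS replicate 4 the difference was 1.15 (exact permutation p = 0.0159, adjusted p = 0.0238). Since that library alone among the LPS libraries overlapped the saline libraries, this pass followed from leaving it out. With any other library left out the ratio did not pass (adjusted p up to 0.119, exact permutation test).

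The log2 ratio of Ikbkb to Chuk, the 2 catalytic subunits, was -2.18 ± 0.16 in saline and -2.12 ± 0.07 in LPS hearts (SD, n = 5 per group; exact p = 0.460, adjusted p = 0.460). The difference of 0.06 was smaller than the spread in either group, which does not show that both genes changed alike.

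**Figure D4:**
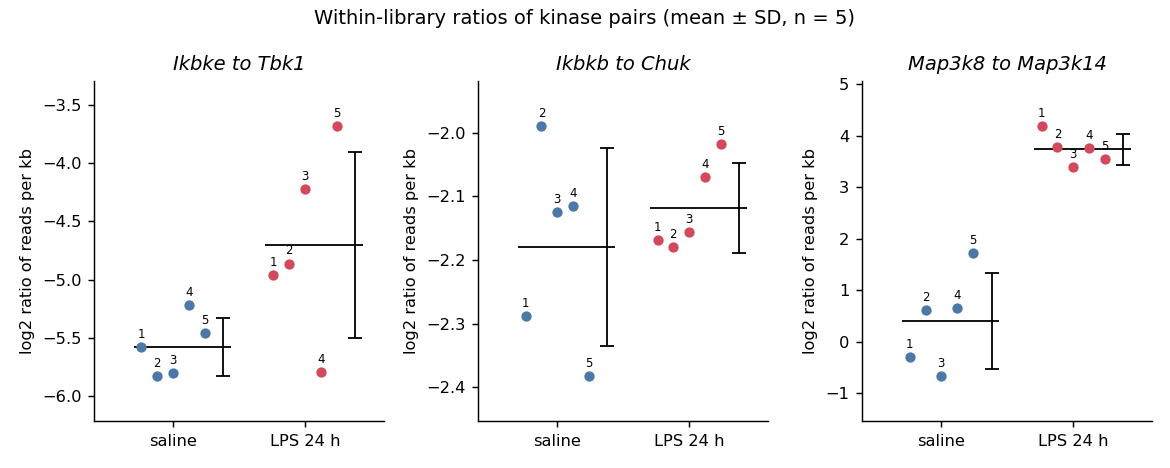
Log2 ratios of reads per kilobase of deposited length (vertical axes) within each library for Ikbke to Tbk1, Ikbkb to Chuk and Map3k8 to Map3k14, in 5 saline (blue) and 5 LPS (red) libraries numbered by replicate, with mean ± SD in black. The groups are separate for Map3k8 to Map3k14, overlap through LPS replicate 4 for Ikbke to Tbk1, and overlap broadly for Ikbkb to Chuk.

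The genes around the kinases were taken from 10 lists that cover their activators, brakes, substrates and partners, a few of them in more than one list. Of 97 tested genes of these lists outside the 7, 47 rose and 12 fell, with a median log2 fold change of 0.43. Of all tested genes 18.9% rose and 21.0% fell. The lists were chosen with earlier results of these data known, so this is a description and no test. Upstream of the canonical complex, 6 of 17 tested activators rose and 2 fell, against 4 and 5 with total count scaling. The adaptor gene Myd88 (2.69 ± 0.49, SE) and Rnf31 (1.84 ± 0.22) had the largest rises. Rnf31 encodes the catalytic subunit of the ligase LUBAC, which makes the linear ubiquitin that NEMO recognises. Myd88 was at 3.39 when saline replicate 5 was left out. Traf5 had the largest fall (-0.77 ± 0.29, adjusted p = 0.0463, edgeR), which no longer passed when any one of saline replicates 1 to 3 or LPS replicates 1, 2, 4 and 5 was left out (adjusted p up to 0.145).

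The brakes of IKK activity rose in 5 of 10 cases and fell in 0. Tnfaip3, the ubiquitin-editing enzyme A20, and Zc3h12a, an RNase that destroys inflammatory mRNA, led (3.93 ± 1.13 and 3.05 ± 0.36, log2 scale, SE). Total count scaling gave 3 rising and 2 falling brakes. Tnfaip3 lost its call without saline replicate 2 (adjusted p = 0.0558, edgeR), and its log2 fold change was 6.18 without saline replicate 5.

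Of 8 genes of IkappaB proteins, nuclear ones included, and of the precursors p105 and p100, 7 rose and 0 fell. Their median log2 fold change was 2.20. Nfkbiz, a nuclear IkappaB, went up from a mean of 13.0 CPM to one of 220 CPM (4.08 ± 0.83, SE), and Nfkbie, which encodes IkappaB-epsilon, by 2.39 ± 0.77. The saline SD of Nfkbiz, 18.1 CPM, exceeded its mean, and its log2 fold change was 5.48 when saline replicate 5 was left out. Nfkbie lost its call in each fit that left out a library other than saline replicate 5 (adjusted p up to 0.0825, edgeR) and was at 3.91 without that replicate. Of the 3 Rel subunits 2 rose, Rel (2.58 ± 0.30) and Rela (1.63 ± 0.29), both transcription activators of the pathway. Without saline replicate 5 all 3 rose, as did all 8 IkappaB proteins and precursors.

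Around NIK, 7 of 13 tested genes of the non-canonical route rose and 1 fell, although Map3k14 itself did not pass. Without saline replicate 5 the counts were 8 and 1. The receptor gene Cd40 rose most, by 4.13 ± 0.81 on the log2 scale (8.86 ± 12.2 CPM in saline, 154 ± 33.8 CPM after LPS, SD), followed by Birc3 (2.59 ± 0.72), a ubiquitin ligase of the complex that degrades NIK. Tnfsf12, which encodes the ligand TWEAK, fell from 5.74 ± 1.80 to 1.12 ± 0.248 CPM (-2.36 ± 0.27). The fold changes of Cd40 and Birc3 were 5.51 and 3.84 on the log2 scale without saline replicate 5.

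Of 12 adaptors and activators of TBK1, 6 rose and 2 fell. Ifih1, the RNA sensor MDA5, and Tlr3, a receptor for double-stranded RNA, had the largest rises (3.50 ± 0.79 and 3.36 ± 0.60, SE). Tbkbp1, a TBK1-binding adaptor, fell, from 15.7 ± 3.38 to 4.95 ± 1.42 CPM (-1.66 ± 0.21, adjusted p = 2.68e-05, edgeR, n = 5 per group). Of 4 tested genes listed as TBK1 targets, Irf7 rose (2.85 ± 0.80) and the other 3 did not pass. With total count scaling 1 of these targets rose and 2 fell. With saline replicate 5 left out, the log2 fold changes were 4.61 for Ifih1, 4.16 for Tlr3 and 3.71 for Irf7.

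Downstream of TPL2, 5 of 10 genes of its complex and of the MAP kinases rose and 2 fell. Nfkb1, whose product p105 holds TPL2, rose by 1.64 ± 0.24 and Map2k1, the ERK kinase MEK1, by 1.51 ± 0.10 (SE), from 46.7 ± 5.76 to 133 ± 12.2 CPM. Mapk3, which encodes ERK1, fell from a mean of 56.1 CPM to one of 19.1 CPM (-1.56 ± 0.19, adjusted p = 5.19e-05, edgeR). Of 13 other MAP3K genes tested, 3 rose and 5 fell, with the largest falls in Map3k12 (-2.01 ± 0.24) and Map3k11 (-1.05 ± 0.14) and the largest rise in Map3k6 (1.54 ± 0.43), which did not pass once saline replicate 4 was left out (adjusted p = 0.0510). Map3k6 was at 2.15 with saline replicate 5 left out. Among these other MAP3K genes 1 rose and 6 fell with total count scaling.

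Of 12 interferon-stimulated genes, whose induction TBK1 can start, 8 rose and 0 fell with all libraries, led by Rsad2 (4.09 ± 1.31, SE) and Gbp2 (3.81 ± 0.96). Leaving out saline replicate 5 gave 6.78 for Rsad2 and 5.49 for Gbp2, and Mx1 then had the largest value (7.36). All 12 then rose, but that library was singled out by its sum over these same genes, so this gain followed from the choice. When any other library was left out 4 or 5 rose. Rsad2 lost its call in each of these latter fits (adjusted p up to 0.0791, edgeR).

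**Figure D5:**
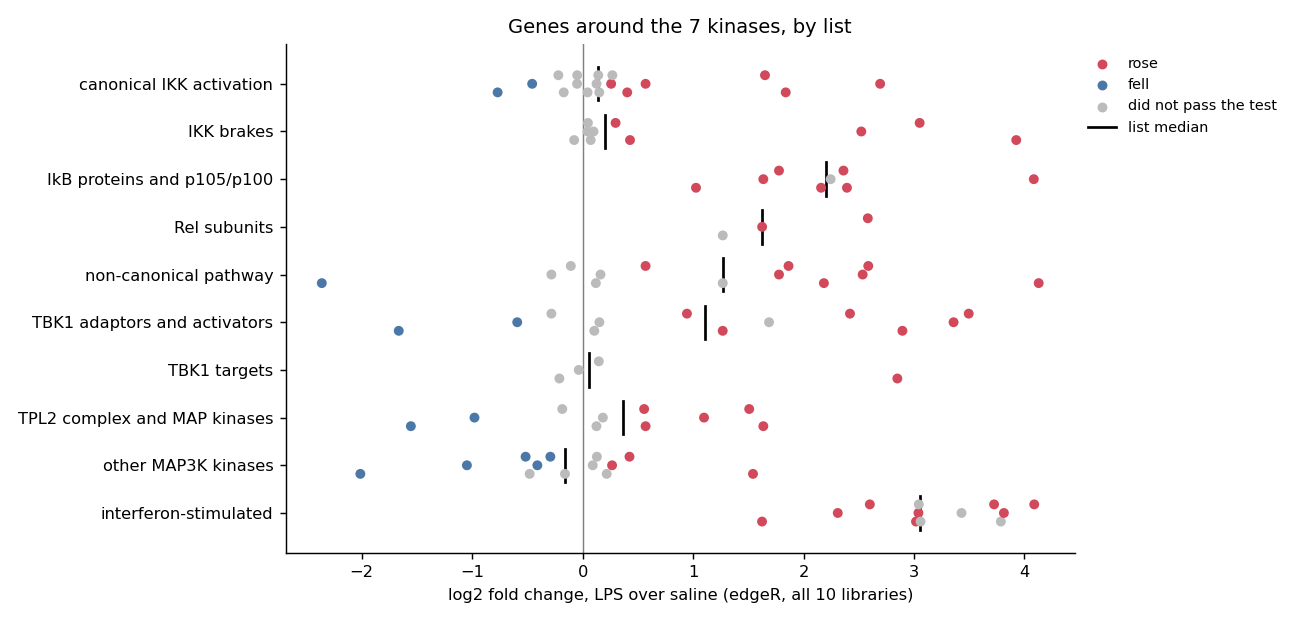
Log2 fold changes of LPS over saline (horizontal axis, edgeR, all libraries) of the tested genes of each list around the 7 kinases, which are left out, colored by whether they rose, fell or did not pass the test, with the list median as a black bar. IkappaB proteins and precursors lie to the right with a median of 2.20, while the other MAP3K genes lie on both sides of 0 with a median of -0.16.

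The genes most alike to each kinase were found by Pearson correlation of log2 CPM over the 10 libraries, a description to which the group difference and the libraries themselves contribute. For Tbk1 these were Mlkl, the executor of necroptosis, Snx10 and the antiviral nucleotide hydrolase Samhd1 (r from 0.998 to 0.999). For Map3k8 they were Zfp36, which encodes the mRNA decay factor tristetraprolin, Zc3hav1, an antiviral RNA-binding protein, and Rbm43 (r from 0.996 to 0.998). Ikbke was most like Ubr4, a very large ubiquitin ligase, Dync1h1, the dynein heavy chain, and the calcium pump gene Atp2b4 (r from 0.982 to 0.987).

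The other kinases had other neighbours. Chuk was most like Gm26809, Ythdc2 and Sdad1 (r from 0.976 to 0.978), and Ikbkb most like Gpm6b, Tma16 and Akap11 (r from 0.961 to 0.970). Ikbkg was most like Ackr4, Cnpy3 and Csad (r from 0.953 to 0.954), and Map3k14 most like Nckap5, Gm36827 and AC133498.1 (r from 0.854 to 0.897). Among the 7 themselves Tbk1 and Map3k8 were most alike (r = 0.986), while Ikbkg was opposite to each of the 5 rising genes (r from -0.83 to -0.79) and Map3k14 was at most weakly related to any of the other genes (r from -0.34 to 0.27).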

How the data were processed

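Hearts of 5 saline and 5 LPS mice were profiled by RNA-seq. The authors deposited raw counts per gene with 1 column per library, and per the submitters' processing notes Bowtie 0.12.2 and the mm9 build were named, with no role or order. The gene coordinates of the table are those of GRCm38: of 54532 identifiers 54409 were found in GENCODE M21 and 53499 had the same start and end. For counting tool, annotation release and strand, the sources used here give nothing. The authors' FPKM columns were used to set levels of genes side by side and in no test. The gene length in the deposited table equals the union of all annotated exons for the 7 kinases. Further deposited tables, among them 20 FPKM columns in which LPS is named for 3 h against 24 h in the labels, were not used.

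Counts were tested with R 4.3.3 and edgeR 4.0.16 (quasi-likelihood test, robust, filterByExpr with minimum count 10 and minimum total count 15, TMM scaling, Benjamini-Hochberg over 13864 genes, threshold 0.05). The procedure was also run on simulated data. These held no library that stood apart, so they do not show how it performs with one like saline replicate 5. SE were derived from the F statistic. Alternatives were other scalings and filters, DESeq2 1.42.0, a replicate block and leaving out each library. The 7 members, the gene lists and the tests were chosen with earlier results of these data known. Named were the 7 kinases, from each list the 2 genes that moved furthest in its commoner direction and the 1 that moved furthest in the opposite one, the 2 most abundant markers per cell type and the 3 genes most alike to each kinase. The markers Ly6g and Cd14, and G6pdx and other overlapping genes, were named after their values were seen. Replicates were not duplicates: chi-square per gene between libraries of a group was at least 9.38. Replicate numbers did not pair the samples.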

Additional observations from a re-analysis of the deposited data

Results flagged for a closer look

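Among 7 kinases and 3 ratios in 2 groups of 5 libraries, 1 value lay far from the others of its group, which chance gives for about 1 in 20 groups. Map3k8 in saline replicate 5 was at 21.7 CPM, while saline replicates 1 to 4 lay between 3.13 and 6.34 CPM. Its gap to the next library was 0.826 of the group's range, above Dixon's critical value of 0.71. On the log2 CPM scale saline replicate 5 lay 69.4% of the way from the mean of the other saline libraries to the mean of the LPS libraries for Ikbkg, 61.6% for Map3k8, 56.1% for Chuk, 42.4% for Tbk1, 34.3% for Ikbke and 0.401% for Ikbkb. For Ikbkg and Chuk this distance is small. Map3k14 in saline replicate 5 lay above all other libraries of both groups.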

How the results depend on the processing

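The calls of Tbk1, Ikbke and Map3k8 kept their direction and side of the threshold under all 18 alternatives, and those of Chuk and Ikbkb under 17, the exception being total count scaling. With total count scaling 3 of the 7 kinases rose and 1 fell, and over all genes 1711 rose and 5774 fell, against 2617 and 2916 with TMM. With upper quartile scaling 1 kinase fell, and 4407 of all genes fell. Leaving out each library in turn gave 5 rising and 0 falling kinases in every fit, with 2277 to 2967 rising and 2355 to 3241 falling among all genes. Map3k14 changed sign with a log2 fold change of 0.0055 in the fit with the replicate block, 0.02 without saline replicate 3, 0.13 without saline replicate 5 and 0.02 without LPS replicate 5, and ranged from -0.14 to 0.13 when a library was left out; the cause was not tested. The ratio of Ikbke to Tbk1 ranged from 0.62 to 1.15 when a library was left out. It passed only without LPS replicate 4, the LPS library that overlapped the saline libraries. The exact sign-flip test of Map3k8 to Map3k14 over the replicate block (difference 3.33) gave p = 0.0625, the smallest that 5 pairs allow (adjusted p = 0.188). Deviations of libraries with the same number correlated with r from -0.07 to 0.18, and 1 of 5 saline libraries correlated best with its own number. The replicate block gave 5 rising and 0 falling kinases and 2582 rising and 2836 falling genes. Of all pathway list genes 22 fell with total count scaling, against 12. Ikbke had 15 to 35 reads in each saline library, which limits the precision of its saline level.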
